A study of Homo sapiens and Mus musculus with 24 samples.

Results

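The comparison described here sets the Caco-2 line labelled ΔDNMT3A + DNMT3A2 against the knockout line labelled ΔDNMT3A. It covers 8 RNA samples, 4 of each line, chosen by genotype label out of the 24 samples listed, and every gene in the count tables. Caco-2 is a line from a human colorectal adenocarcinoma whose cells take on features of absorptive enterocytes in culture. The knockout is a single clone obtained with CRISPR-Cas9 and limiting dilution, and by the study's methods the DNMT3A2 line was derived from it with a piggyBac vector that carries the TY1-tagged short isoform under a CMV promoter. The vector also confers puromycin resistance and green fluorescence, and the cells were diluted and expanded under puromycin, a selection the knockout did not receive. Unedited Caco-2 cells (WT, 4 samples) and a line labelled ΔDNMT3A + DNMT3A1, made in the same way with the long isoform (3 samples with counts), serve below as reference levels. Each line is 1 clone or culture, so the isoform, the selection and the clone cannot be told apart, and p-values measure the spread between samples of a line.

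DNMT3A is a de novo DNA methyltransferase that adds methyl groups to cytosines in CpG dinucleotides. Its long isoform, DNMT3A1, and its short isoform, DNMT3A2, share the catalytic domain, and DNMT3A2 starts from an internal promoter and lacks the amino-terminal stretch of DNMT3A1. DNMT3A2 is best known from embryonic stem cells and germ cells, whereas DNMT3A1 prevails in most somatic tissues. DNA methylation at CpG-rich promoters usually goes with silence of the gene, while methylation within gene bodies is common in transcribed genes.

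The targeted gene was examined first. DNMT3A (ENSG00000119772, GRCh38 chromosome 2, 25227855 to 25342590, minus strand) was read in CPM, the reads of a gene per 1000000 reads on genes after scaling for composition. It lay at 22.3, 20.7, 20.6 and 19.3 CPM in the 4 ΔDNMT3A libraries and at 20.2, 22.3, 23.5 and 21.7 CPM in the 4 libraries labelled DNMT3A2. The groups overlapped, and the log2 fold change of 0.07 ± 0.057 (SE) did not pass edgeR's quasi-likelihood test (Benjamini-Hochberg adjusted p = 0.272). With a GC trend removed the log2 fold change was 0.138 and passed (edgeR adjusted p = 0.0318), and within lane code L005 alone, a code in the table headers shared by replicates 1 and 2, it was -0.02. WT cells had 64.6 ± 2.27 CPM (SD, n = 4) and the DNMT3A1 line 38 ± 1.23 CPM (SD, n = 3). The gene-level count adds reads of the edited gene and of any construct sequence that matches its exons and does not separate the isoforms, so it did not show the re-expressed isoform by a level clearly above the knockout in the libraries labelled DNMT3A2. By immunoblot and nuclear immunofluorescence, the study reported DNMT3A protein in both lines with a reintroduced isoform, a measure different from this RNA count. The libraries labelled DNMT3A2 are named by their label throughout.

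Genes on both sides of DNMT3A differed between the lines. The 25 tested genes next to DNMT3A on the centromere side, from 25377198 to 27134675 on chromosome 2, had a median log2 fold change of -1.32 in DNMT3A2 against ΔDNMT3A, and 24 of the 25 were lower past the threshold. The 25 on the other side, from 20447074 to 25168903, had a median of 0.519 with 19 higher and 3 lower. Measured against the WT mean, the centromere-side genes had medians of 0.925 to 1.0 (log2) in the ΔDNMT3A libraries, 0.976 to 1.01 in the DNMT3A1 libraries and -0.125 to -0.101 in the DNMT3A2 libraries. In this stretch the DNMT3A2 line therefore lay near WT, and the DNMT3A1 line lay near the knockout from which both isoform lines are described as derived. DNA copy number was not analysed here. The part of this stretch in the value of any single gene within it was not tested.

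**Figure D1:**
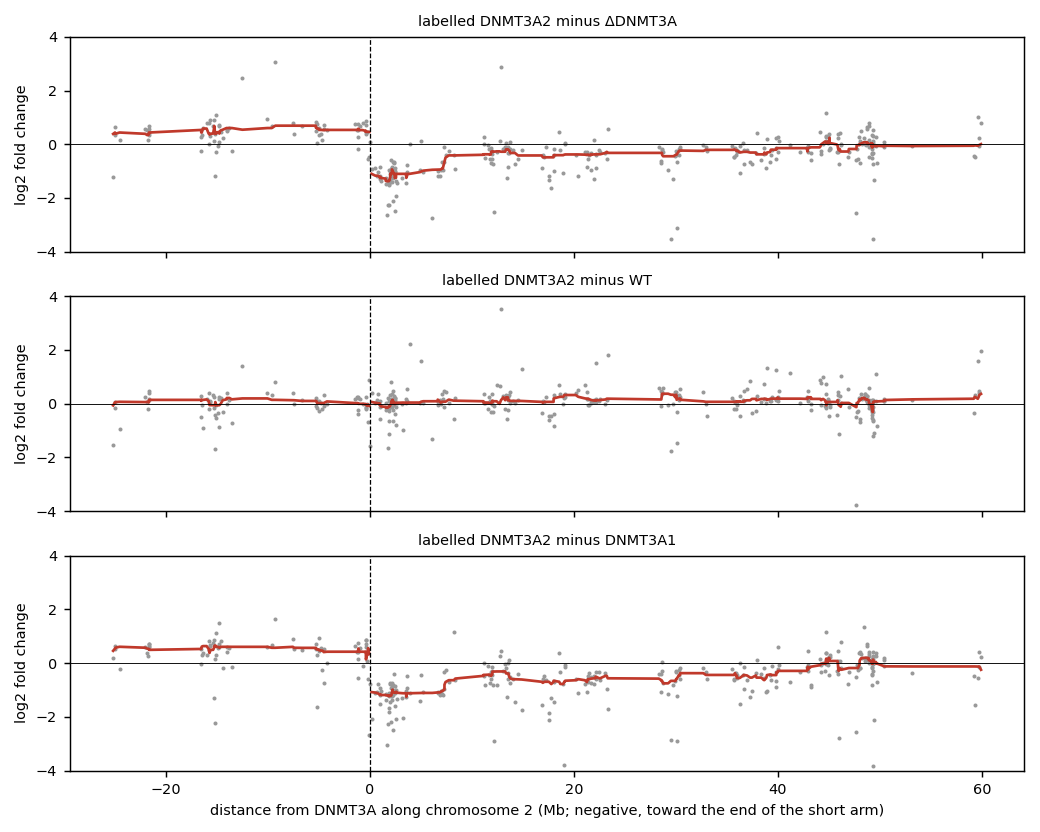
Log2 fold change of each tested gene on chromosome 2 (vertical axis) against its distance from DNMT3A in megabases (horizontal axis), for DNMT3A2 against ΔDNMT3A, WT and DNMT3A1 in separate panels, with a red running median over 15 genes. The level drops at DNMT3A against ΔDNMT3A and against DNMT3A1, and the 25 genes on the centromere side have a median of -0.118 against WT.

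The 4 DNMT3A2 libraries held 22104408 to 31903940 reads on genes and the 4 ΔDNMT3A libraries 30242279 to 42161299. The first principal component over the 8 libraries carried 76.4% of the variance and separated the lines, and the second carried 4.76%. Mitochondrially encoded reads made up 0.653 to 0.695% of the knockout libraries and 0.457 to 0.544% of the DNMT3A2 libraries (exact two-sided permutation test, p = 0.0286, the smallest that 4 against 4 allows). The 10 Caco-2 epithelial markers summed to 13200 to 13800 CPM in ΔDNMT3A and to 9200 to 9490 CPM in DNMT3A2. Of the markers of other cell types, CDH5, KDR, TEK, CLDN5 and EMCN (endothelium), PTPRC, CD3E and SPI1 (blood) and DCN, LUM and THY1 (fibroblasts) had at most 3 counts in every library of both lines. Summed over their whole lists, the 10 fibroblast markers came to 160 to 173 CPM in ΔDNMT3A and 187 to 209 CPM in DNMT3A2, the 14 blood markers to 28.1 to 32.1 against 19.6 to 20.1 CPM, and the 7 endothelial markers to 8.96 to 9.14 against 3.23 to 4.11 CPM. None of these sums overlapped between the lines, and their part in the results was not tested. In bulk RNA, fewer cells of a state and less RNA per cell cannot be told apart.

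The lines differed across most of the transcriptome. Of 16431 genes tested with edgeR, 11158 (67.9%) passed an adjusted p of 0.05, with 5547 higher (33.8%) and 5611 lower (34.1%) in DNMT3A2. A change of at least 1 on the log2 scale was passed by 728 genes upward (4.43%) and 1228 downward (7.47%), and the median size of a log2 fold change was 0.29. The libraries of the lines did not overlap in 10088 genes (61.4%), with DNMT3A2 above in 30.9% and below in 30.5% of genes. With shares of this size, a call for a single gene is common, and the lists below are described by their counts and medians beside the median of all genes, 0.00364.

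Among the genes that were almost lost in DNMT3A2 was SLC7A4, a member of the cationic amino acid transporter family. It lay at 4.06, 3.88, 4.46 and 3.32 CPM in ΔDNMT3A, and in DNMT3A2 a single read was found in 1 of the 4 libraries. It fell by at least 5.12 on the log2 scale, a bound set at 3 counts per library. PKIB, an inhibitor of protein kinase A, had 27.2, 29.3, 28.1 and 29.3 CPM in the knockout and 0.435, 0.461, 0.567 and 0.583 CPM in DNMT3A2 (log2 fold change -5.77 ± 0.099 SE, edgeR adjusted p = 4.3e-23). WT cells resembled DNMT3A2 in having little PKIB (0.738 ± 0.197 CPM, SD, n = 4), while the DNMT3A1 line had 34.5 ± 2.79 CPM (SD, n = 3).

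PLB1 encodes an intestinal brush-border phospholipase and lies on chromosome 2 in a run of genes past the centromere side of DNMT3A that fell together. Its level was 102, 102, 99.9 and 94.8 CPM in ΔDNMT3A against 2.17, 1.75, 2.09 and 2.24 CPM in DNMT3A2, a log2 fold change of -5.59 ± 0.057 (SE). The fall was far larger than the median of that run, -1.3. CDH11, a cadherin best known from mesenchymal cells, fell from 10.3 ± 0.606 to 0.305 ± 0.0663 CPM (SD, n = 4 each). SMC1B, a cohesin subunit of meiosis, fell from 4.76 ± 0.424 to 0.146 ± 0.0679 CPM, and FBXO25, an F-box protein of ubiquitin ligases, from 17.7 ± 1.22 to 0.577 ± 0.0809 CPM. WT and DNMT3A1 cells had levels of CDH11, SMC1B and FBXO25 of 5.55 CPM or more, so the loss of these genes set DNMT3A2 apart from all other lines. DDIT4L, a relative of the stress gene DDIT4, and TSPAN7, a tetraspanin, fell by 5.27 and 4.49 on the log2 scale. The value of DDIT4L, which had few reads in DNMT3A2, lay between -8.834 and -4.567 under the alternatives tried.

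PROX1, a homeobox factor of lymphatic endothelium, liver and enteroendocrine precursors, was read at 0.263, 0.444, 0.338 and 0.665 CPM in ΔDNMT3A and at 16, 15.8, 16.8 and 16.2 CPM in DNMT3A2, a log2 fold change of 5.27 ± 0.13 (SE; edgeR adjusted p = 1.9e-20). WT and DNMT3A1 cells had 1.33 ± 0.179 and 1.86 ± 0.0444 CPM, above the knockout and far below DNMT3A2. NKX2-1, the factor of lung and thyroid, was at most 0.166 CPM in every knockout library and 3.22 to 3.44 CPM in every DNMT3A2 library. TOX3, a high-mobility-group protein, rose by 5.08 on the log2 scale.

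HMGA2 and LIN28A belong to the oncofetal axis in which LIN28 proteins restrain let-7 miRNAs and let-7 restrains HMGA2. HMGA2 lay at 3.82, 3.67, 4.5 and 4.69 CPM in ΔDNMT3A and at 108, 103, 109 and 112 CPM in DNMT3A2, with 92.2 ± 1.22 CPM in WT and 22.0 ± 1.11 CPM in DNMT3A1. DNMT3A2 and WT were thus close to each other for HMGA2, with a log2 fold change of 0.21 between them. LIN28A rose from 0.358 ± 0.132 to 8.97 ± 0.711 CPM (SD, n = 4 each), and here WT (0.746 ± 0.204 CPM) and DNMT3A1 (1.35 ± 0.113 CPM) were both low.

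CD24, a surface glycoprotein of progenitor and tumour cells, rose from 3.37 ± 0.166 to 83.3 ± 1.2 CPM (SD, n = 4 each), the other lines having at most 7.33 CPM on average. Near-identical copies of CD24 exist elsewhere in the genome, so its count is uncertain. HAS2, which makes hyaluronan, rose from 0.256 ± 0.0876 to 8.42 ± 0.99 CPM. MYH7B, a myosin heavy chain, and IGSF10 rose by 4.60 and 5.10 on the log2 scale. TCIM, a regulator of Wnt signalling, and DIRAS2, a small GTPase, had at most 3 counts in every knockout library and were higher by at least 4.49 and 4.45 on the log2 scale.

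**Figure D2:**
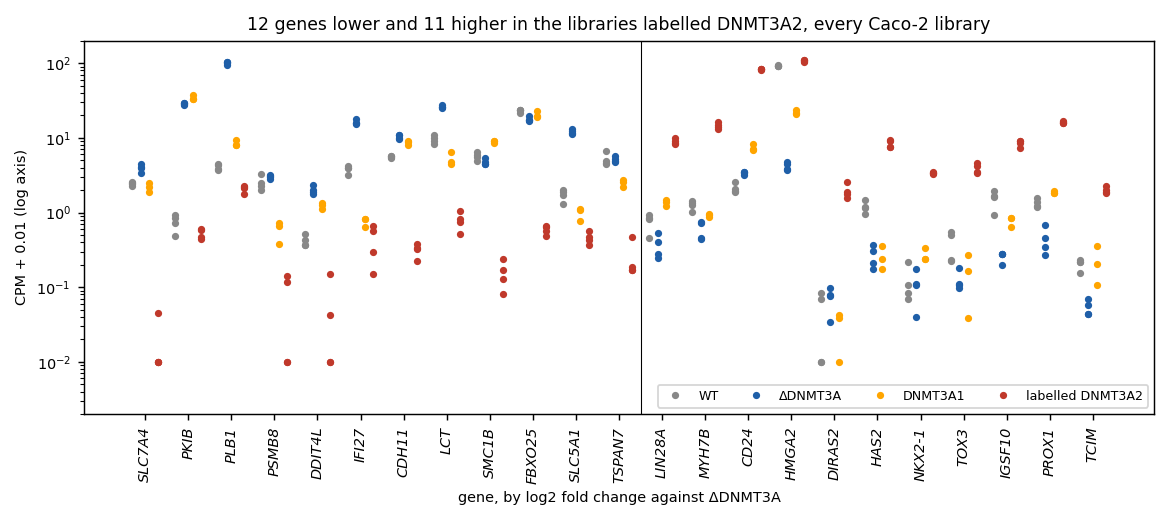
CPM plus 0.01 on a log axis for the 12 protein-coding genes that fell and 11 of the 12 that rose most in DNMT3A2 against ΔDNMT3A. The genes were past the threshold, had a mean of at least 1 CPM over the 8 libraries and did not overlap between these lines. Each point is 1 library, coloured by line. The points of a line lie close together, and WT sits near DNMT3A2 for PKIB and HMGA2 but near ΔDNMT3A for FBXO25 and CD24.

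Genes induced by interferon were lower in DNMT3A2 almost without exception. Interferons bind surface receptors, activate STAT proteins that join with IRF9, and this complex binds interferon-stimulated response elements (ISREs) in the promoters of target genes. The ISRE core was searched as GAAANNGAAA on both strands in RefSeq promoter windows of 300 bases (GRCh38.p14, 250 bases before and 50 after each gene's start), with overlapping matches allowed. It was found in 996 of 27305 windows (3.65%) and in 21 of the 30 tested interferon-stimulated genes that had a window (70.0%). The 30-base stretches around matches in genes described below are shown to let them be compared, with the match in capitals, each read 5′ to 3′ on the strand of the match. IFI6, HERC5 and TAP1 hold further matches that are not shown. A match is a description and not a site of binding.
IFI27, chr14:94110631-94110660, plus strand: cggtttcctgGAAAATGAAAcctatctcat
IFI27, chr14:94110618-94110647, minus strand: cattttccagGAAACCGAAActgcagacat
IFI6, chr1:27672329-27672358, minus strand: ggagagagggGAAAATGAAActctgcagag
HERC5, chr4:88457035-88457064, minus strand: agctccagtgGAAAACGAAAcataatgttt
PARP14, chr3:122680800-122680829, plus strand: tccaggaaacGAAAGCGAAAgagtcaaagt
EIF2AK2, chr2:37156967-37156996, minus strand: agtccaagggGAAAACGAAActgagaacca
TAP1, chr6:32853813-32853842, plus strand: ccatttagggGAAAGCGAAAtcgaaagcgg
TAP2, chr6:32838778-32838807, minus strand: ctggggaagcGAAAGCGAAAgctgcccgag

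Of 45 interferon-stimulated genes listed, 39 were tested, 37 were lower and 1 was higher, with a median log2 fold change of -1.90. The other listed genes had no identifier (1) or stayed below the filter (5, with means of at most 0.171 CPM). Of the 39, 11 passed the filter through the knockout alone, which favours genes that are lower in DNMT3A2. The 28 genes that reached the filter level in all 8 libraries were therefore also counted. Of these, 27 were lower, 18 of them by at least 1, and 1 was higher, with a median of -1.61. Among all 14550 genes at that level in all 8 libraries, 70.2% were called, 34.6% lower and 35.6% higher, and the median was 0.00985.

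IFI27, a mitochondrial protein of the type I interferon response, lay at 15.9, 15.8, 17.9 and 15.5 CPM in ΔDNMT3A and at 0.553, 0.138, 0.283 and 0.648 CPM in DNMT3A2. Every DNMT3A2 library was below every knockout library, and the log2 fold change was -5.25 ± 0.15 (SE; edgeR adjusted p = 4.56e-19). IFI6, a related protein, fell from 36.2, 36.8, 38.3 and 34.3 CPM to 2.96, 2.63, 2.87 and 2.76 CPM (-3.70 ± 0.068, SE). HERC5, the ligase that attaches ISG15 to proteins, fell from 9.32 ± 0.567 to 0.828 ± 0.242 CPM (SD, n = 4 each), and the DNMT3A1 line had 13.6 ± 0.123 CPM (SD, n = 3).

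The falls at the other end of the range were small. PARP14 fell by 0.20 and EIF2AK2, the double-stranded RNA kinase PKR, by 0.16 on the log2 scale, and both hold the ISRE matches shown above. IFITM2, a restriction factor at endosomes, was the gene that was higher, at 1.52 ± 0.266 against 1.04 ± 0.175 CPM (log2 fold change 0.55 ± 0.19 SE, edgeR adjusted p = 0.012), and its libraries overlapped between the lines. The call was lost with DESeq2 (adjusted p = 0.062) and with edgeR without DNMT3A2 replicate 1 (log2 fold change 0.46, adjusted p = 0.0521). Reads shared with its close paralogues make the IFITM2 count uncertain.

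Against WT, 34 of 38 tested genes of the interferon list were lower in DNMT3A2 and 2 were higher (median -1.47), where 68.7% of all genes differed. Against DNMT3A1, 28 of 34 were lower and 2 higher (median -0.762). Library by library, the list's median relative to the WT mean was 0.0372 to 0.236 (log2) in ΔDNMT3A, -0.502 to -0.417 in DNMT3A1 and -1.17 to -1.04 in DNMT3A2. The ranges of WT (-0.06 to 0.0506) and ΔDNMT3A overlapped, the DNMT3A1 libraries lay below both, and the DNMT3A2 libraries were the lowest.

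**Figure D3:**
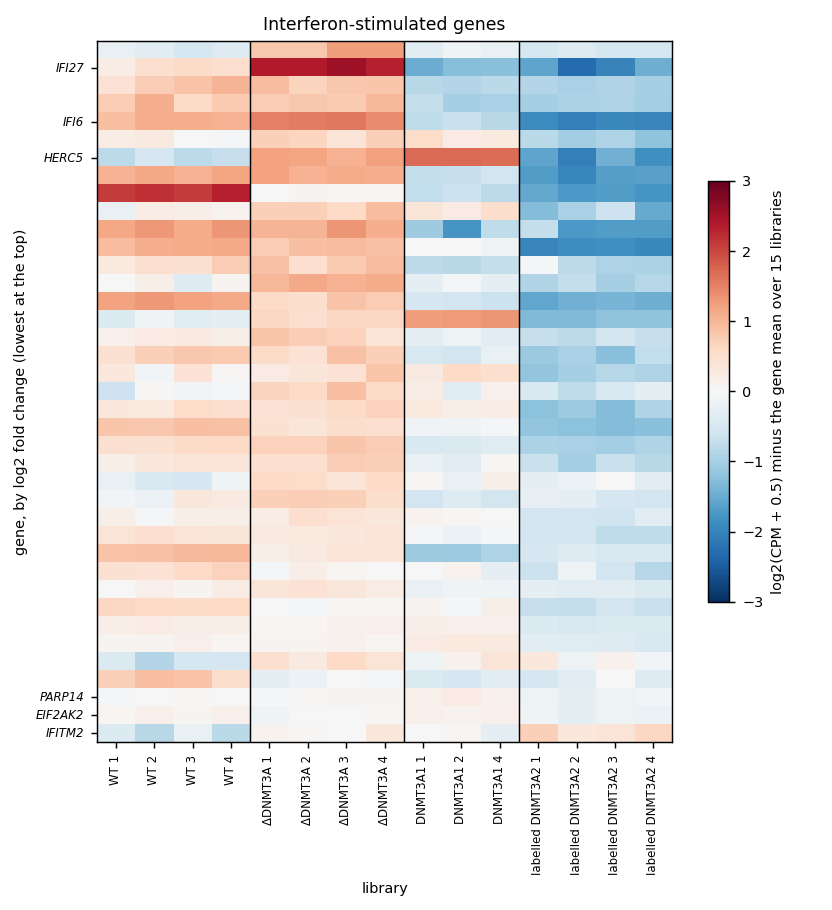
Heat map of the 39 tested interferon-stimulated genes (rows) in the 15 Caco-2 libraries (columns, grouped by line), coloured by log2(CPM + 0.5) minus the mean of the gene over all libraries. Most rows have their lowest values in the 4 DNMT3A2 columns, while IFITM2 is among the few that are high there, and the genes described in the text are labelled.

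The machinery that loads peptides onto MHC class I molecules fell as well. Of 22 listed genes 19 were tested, 18 were lower and 1 was higher, with a median of -0.999, and 16 of the 17 at the filter level in all 8 libraries were lower (median -0.815). PSMB8, a catalytic subunit of the immunoproteasome, had 3.08, 3.02, 3.14 and 2.82 CPM in ΔDNMT3A and 0, 0, 0.106 and 0.13 CPM in DNMT3A2. TAP1 and TAP2, the subunits of the peptide transporter, fell by 3.63 ± 0.17 and 2.61 ± 0.12 (log2, SE), with TAP1 at 6.22 to 8.15 CPM in the knockout libraries and 0.395 to 1.02 CPM in the DNMT3A2 libraries. ISRE matches stood in 8 of the 15 genes of this list with a window (53.3%), TAP1 and TAP2 among them.

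CANX, a chaperone of the loading pathway, lay at 2985, 2963, 3027 and 3001 CPM in ΔDNMT3A and at 2805, 2754, 2789 and 2789 CPM in DNMT3A2 (-0.11 ± 0.02, SE), and PDIA3, a thiol oxidoreductase of the loading complex, was the gene of the list that rose, by 0.09 ± 0.023 (SE; edgeR adjusted p = 0.00185). With a GC trend removed PDIA3 did not pass (edgeR adjusted p = 0.119).

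Signalling genes of the TNF and NF-kB list divided 3 higher to 19 lower among 30 tested (median -0.282). TNFSF10, the death ligand TRAIL, had 5.57, 3.38, 4.36 and 5.65 CPM in ΔDNMT3A and 0.474, 0.508, 0.354 and 0.389 CPM in DNMT3A2. WT cells were also low (0.495 ± 0.0559 CPM), and the DNMT3A1 libraries varied widely (8.78 ± 5.96 CPM, SD, n = 3). TNFRSF1B, a TNF receptor, fell from 13.1 ± 1.07 to 1.73 ± 0.225 CPM, and the cytokine IL18 from 51.8 ± 1.92 to 7.23 ± 0.391 CPM (SD, n = 4 each).

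Genes of the enterocyte brush border fell together. The brush border is the carpet of microvilli on the gut lumen that bears digestive enzymes and transporters over a scaffold of villin, myosins and protocadherin-like adhesion proteins. Of 33 listed genes 29 were tested, 27 were lower and 1 was higher (median -0.901), and 25 of the 27 at the filter level in all 8 libraries were lower (median -0.647). LCT, which digests milk sugar, lay at 26.2, 25.5, 26 and 27.2 CPM in ΔDNMT3A and at 1.03, 0.508, 0.814 and 0.745 CPM in DNMT3A2 (-5.06 ± 0.1, SE; edgeR adjusted p = 6.16e-22). ANPEP, an aminopeptidase, fell from 12.2 ± 0.801 to 2.18 ± 0.434 CPM, and CDHR5, which links the tips of microvilli, from 40.9 ± 1.92 to 7.05 ± 0.858 CPM (SD, n = 4 each). None of the 22 genes of this list with a promoter window held the ISRE core. Of all tested protein-coding genes with a window, 284 of 10528 held it (2.7%), so none among 22 is close to that share.

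VIL1, villin itself, fell by 0.26 from 655 ± 8.41 to 548 ± 10.1 CPM, and MYO1D by 0.07 ± 0.023 (SE) with overlapping libraries, which did not pass within either lane code alone (edgeR adjusted p = 0.0917 and 0.0679). The lane codes stand in the headers of the count tables, L005 for replicates 1 and 2 and L006 for 3 and 4 of both lines. ANKS4B, which anchors the links between microvilli, was the gene that rose (0.30 ± 0.06, SE). MGAM2, a relative of the brush-border maltase, had at most 3 counts in every DNMT3A2 library against 1.59 to 1.99 CPM in the knockout, and fell by at least 4.03 on the log2 scale.

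Nutrient and ion transporters showed a wider division, with 24 of 34 tested lower and 6 higher (median -0.676). Of the 34, 3 passed the filter through the knockout alone. Among the 30 at the filter level in all 8 libraries, 21 were lower and 6 higher (median -0.588). SLC5A1, the sodium-driven glucose carrier of the brush border, lay at 11.2, 11.4, 12.4 and 13.3 CPM in ΔDNMT3A and at 0.356, 0.415, 0.46 and 0.551 CPM in DNMT3A2 (-4.72 ± 0.13, SE). SLC2A5, the fructose carrier, fell from 11.9 ± 2.4 to 0.514 ± 0.212 CPM, and the water channel AQP1 from 3.95 ± 0.421 to 0.226 ± 0.099 CPM (SD, n = 4 each). All 3 were already low in WT and DNMT3A1, with means of at most 2.39 CPM.

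On the other side, SLC12A2, the basolateral chloride importer of secretory cells, rose from 201 ± 3.86 to 389 ± 11.3 CPM (0.95 ± 0.025, SE). SLC7A5, which brings in large neutral amino acids, rose by 0.45 on the log2 scale. SLC26A3, the chloride-bicarbonate exchanger of colonocytes, was higher by 1.14 ± 0.24 (SE), at 0.988, 1.71, 1.95 and 2.59 CPM against 0.789, 0.859, 0.575 and 1.1 CPM, so that the lines overlapped at these low levels. Within lane code L005 the difference was 0.69 and did not pass (edgeR adjusted p = 0.0653). ATP1B1, the beta subunit of the sodium pump, fell from 741 ± 3.29 to 304 ± 9.46 CPM (SD, n = 4 each).

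Lipid handling divided by member. Of 29 listed genes for apolipoproteins and lipid absorption 23 were tested, with 18 lower and 3 higher (median -0.324). MTTP, which loads lipid onto apolipoprotein B, lay at 1.7, 1.78, 2.2 and 2.53 CPM in ΔDNMT3A and at 0.237, 0.277, 0.354 and 0.357 CPM in DNMT3A2. APOA4 fell from 26.3 ± 3.58 to 6.39 ± 0.697 CPM, and CREB3L3, a transcription factor of intestinal lipid metabolism, from 3.68 ± 0.359 to 0.834 ± 0.176 CPM (SD, n = 4 each).

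The members that rose were APOA2 (288 ± 13.1 to 488 ± 15 CPM), APOC1 (21.1 ± 0.543 to 34.7 ± 2.03 CPM) and APOB (455 ± 38.2 to 654 ± 25.4 CPM; SD, n = 4 each). For all 3 the DNMT3A2 line lay within 0.07 of WT on the log2 scale, a difference that did not pass the test. APOB rose by 0.52 against ΔDNMT3A and lies among the 25 genes before DNMT3A on chromosome 2, whose median was 0.519. The part of that stretch in its value was not tested. Cholesterol synthesis genes and SREBP targets were mostly lower (20 of 33, with 9 higher), with a small median of -0.158.

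Enzymes and pumps that clear drugs divided 12 higher to 14 lower of 35 tested (median -0.0418). Among all genes tested, 33.8% were higher and 34.1% lower, so this division does not set the list apart. ABCB1, the efflux pump P-glycoprotein, lay at 470, 453, 467 and 472 CPM in ΔDNMT3A and at 63.1, 61.4, 61.5 and 66.5 CPM in DNMT3A2 (-2.89 ± 0.028, SE; edgeR adjusted p = 1.51e-27). WT had 415 ± 6.17 and DNMT3A1 252 ± 16.1 CPM, so ABCB1 was lower in DNMT3A2 than in any other line. SULT2A1, which sulfates bile acids and steroids, fell from 14.2 ± 2.3 to 1.22 ± 0.298 CPM. CYP2W1, a cytochrome P450 known from colorectal tumours, fell from 4.94 ± 0.229 to 0.404 ± 0.111 CPM, with 34.3 ± 0.92 CPM in WT.

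In the opposite direction, the aldo-keto reductases AKR1C1 and AKR1C2 rose by 1.81 ± 0.039 and 2.06 ± 0.031 (log2, SE). AKR1C2 lay at 35.8, 37.3, 33.8 and 35.5 CPM in ΔDNMT3A and at 148, 148, 148 and 152 CPM in DNMT3A2. Their sequences are close, so that reads could be divided between them. CYP1B1 rose from 0.327 ± 0.115 to 2.37 ± 0.34 CPM (SD, n = 4 each).

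Of 20 listed keratins 11 were tested, with 3 higher and 6 lower (median -0.668). Of the 11, 2 passed the filter through the knockout alone and 1 through DNMT3A2 alone, which favours genes that differ. Among the 8 at the filter level in all 8 libraries, 2 were higher and 4 lower (median -0.403). KRT20, the keratin of mature enterocytes, fell from 16.1 ± 1.17 to 0.744 ± 0.244 CPM, where WT had 1.03 ± 0.32 CPM. KRT8 and KRT18, the main keratins of simple epithelia, fell by 0.68 and 0.67, while KRT19 did not pass the test (851 ± 8.73 and 841 ± 9.27 CPM; edgeR adjusted p = 0.332). KRT23 was read at 1.89, 2.64, 1.79 and 1.79 CPM in ΔDNMT3A and at 36.5, 39, 38.9 and 36.7 CPM in DNMT3A2 (4.21 ± 0.083, SE), and no other line exceeded a mean of 2.76 CPM.

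Among adhesion molecules, CDH17, the liver-intestine cadherin, fell from 559 ± 5.11 to 313 ± 11.6 CPM, and CDH1, E-cadherin, by 0.12 on the log2 scale. The tight junction list had 11 higher and 14 lower of 28 tested, and the desmosome and adherens junction list 8 higher and 9 lower of 19. The master factors of intestinal identity moved little, CDX2 falling by 0.12 and HNF4A by 0.23, and CDX2 did not pass with a GC trend removed (edgeR adjusted p = 0.365). Of the wider list of intestinal lineage factors, 11 of 29 tested were higher and 10 lower. Beside this list and the junction lists, the shares among all genes tested were 33.8% higher and 34.1% lower. The 11 higher lineage factors became 7 without DNMT3A2 replicate 1 and 8 with DESeq2.

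The strongest rise among those factors was that of SOX4, a factor of progenitor and tuft cells, which lay at 25.8, 25.1, 26.9 and 24.9 CPM in ΔDNMT3A and at 182, 169, 170 and 168 CPM in DNMT3A2 (2.74 ± 0.035, SE; edgeR adjusted p = 1.3e-25). KLF4 and SOX9 rose by 0.78 and 0.73. PPARG, a nuclear receptor for fatty acids, fell from 22.3 ± 1.56 to 6.56 ± 0.18 CPM, VDR, the vitamin D receptor, from 12.4 ± 0.453 to 5.85 ± 0.634 CPM, and GATA5 from 1.83 ± 0.225 to 0.333 ± 0.188 CPM (SD, n = 4 each). GATA5 was similarly low in DNMT3A1 (0.285 ± 0.0575 CPM).

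Genes of the Wnt pathway were mostly higher in DNMT3A2. Wnt ligands act through Frizzled receptors to stabilise beta-catenin, which drives target genes that include feedback inhibitors, and the pathway maintains stem cells of the intestinal crypt. Of 58 listed genes 52 were tested, 34 were higher and 9 lower (median 0.415), and among the 51 at the filter level in all 8 libraries the counts were the same with a median of 0.469, beside 35.6% higher among all genes at that level. The list mixes activators and inhibitors, so its direction is not that of the signal.

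Among ligands and receptors, WNT6 rose from 0.733 ± 0.279 to 3.8 ± 0.406 CPM (SD, n = 4 each), while WNT11 fell by 1.36 ± 0.05 (log2, SE). The receptor FZD4 lay at 60.02, 61.04, 62.2 and 67 CPM in ΔDNMT3A and at 204, 194, 222 and 205 CPM in DNMT3A2 (1.72 ± 0.038, SE). DVL3, which relays the signal from Frizzled, fell by 0.84 and lies in a stretch of chromosome 3 where most genes fell.

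The inhibitors described here went both ways. NKD1, which acts on Dishevelled, lay at 28.6, 27.7, 31.8 and 30.8 CPM in ΔDNMT3A and at 159, 148, 156 and 150 CPM in DNMT3A2 (2.36 ± 0.038, SE; edgeR adjusted p = 1.59e-23), with 101 ± 2.62 CPM in WT and 14.5 ± 1.27 CPM in DNMT3A1. DKK1, a secreted inhibitor, rose from 561 ± 16.1 to 1275 ± 19.4 CPM (SD, n = 4 each). SFRP5, another secreted inhibitor, fell by 0.98.

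Notch and TGF-beta family genes also leaned upward. Of 24 Notch pathway genes tested 14 were higher and 4 lower (median 0.339). The ligand DLL1 rose from 3.04 ± 0.439 to 11.4 ± 0.263 CPM, the receptor NOTCH1 from 5.93 ± 0.469 to 13 ± 0.809 CPM and the target NRARP from 4.66 ± 0.275 to 11.1 ± 0.857 CPM (SD, n = 4 each). NOTCH1 and NRARP lay near their WT means of 11.5 and 10.3 CPM, while DLL1 did not (2.21 ± 0.374 CPM in WT).

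Of 30 BMP and TGF-beta pathway genes, 19 were higher and 4 lower (median 0.198). The ligands went opposite ways, TGFB3 rising from 6.0 ± 0.373 to 23.9 ± 0.762 CPM and TGFB1 falling from 11.4 ± 0.493 to 4.84 ± 0.565 CPM (SD, n = 4 each). SMAD9, a transducer of BMP signals, lay at 0.215, 0.385, 0.169 and 0.266 CPM in ΔDNMT3A and at 4.03, 3.78, 4.39 and 4.28 CPM in DNMT3A2, and was below 1 CPM on average in both other lines. BAMBI, a decoy receptor, rose by 1.19 ± 0.035 (SE).

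Matrix genes did not share a direction, with 13 higher and 22 lower of 38 tested. TNC, tenascin C, fell from 160, 165, 147 and 144 CPM to 8.26, 9.0, 8.75 and 8.39 CPM (-4.17 ± 0.051, SE). FN1, fibronectin, rose from an already high level of 3977 ± 103 to 8465 ± 200 CPM (1.08 ± 0.024, SE). THBS1 rose from 280 ± 13.7 to 805 ± 27.9 CPM and VIM, vimentin, from 9.24 ± 0.406 to 23.2 ± 0.666 CPM (SD, n = 4 each). COL4A4, a basement membrane collagen, rose by 4.20 from 0.181 ± 0.101 CPM.

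Genes for secreted proteins of liver type, which Caco-2 cells also make, were lower in 18 and higher in 9 of 37 tested (median -0.355). The median was -0.214 without DNMT3A2 replicate 3 and -0.237 without ΔDNMT3A replicate 4. VTN, vitronectin, fell from 1285 ± 51.2 to 235 ± 5.56 CPM. The complement proteases C1R and C1S fell by 2.84 and 2.39. ORM1 and ORM2, acute-phase glycoproteins with nearly identical sequences, rose by 1.70 and 2.35, and ALB, albumin, from 8.18 ± 0.357 to 23.6 ± 1.69 CPM (SD, n = 4 each), below the 49.3 ± 10.5 CPM of the DNMT3A1 line.

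Stress genes rose while genes of the respiratory chain fell slightly. The integrated stress response, led by the factor ATF4, had 23 of 29 genes higher and 2 lower (median 0.358). SLC7A11, the cystine importer, lay at 100, 108, 101 and 98.2 CPM in ΔDNMT3A and at 263, 269, 275 and 271 CPM in DNMT3A2 (1.40 ± 0.028, SE). DDIT4, an inhibitor of mTORC1, rose from 92.5 ± 5.87 to 272 ± 8.75 CPM, and CHAC1, which degrades glutathione, from 30.6 ± 2.7 to 62.6 ± 1.3 CPM (SD, n = 4 each). Relative to the WT mean, the list's median was 0.0834 to 0.201 (log2) in the ΔDNMT3A libraries, 0.321 to 0.43 in DNMT3A1 and 0.357 to 0.404 in DNMT3A2, so that the isoform lines overlapped.

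Targets of the antioxidant factor NRF2 were higher in 15 and lower in 5 of 24 (median 0.154), with NQO1, a quinone reductase, rising from 327 ± 3.25 to 554 ± 22.6 CPM. Of 46 nuclear genes for subunits of oxidative phosphorylation, 40 were lower and 1 higher, by little (median -0.292). NDUFB5, a complex I subunit, had a log2 fold change of -0.87 ± 0.031 (SE) and lies in the chromosome 3 stretch, and COX5A rose by 0.12. Against DNMT3A1 the same list had 19 genes higher and 10 lower (median 0.0456).

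The mitochondrial genome showed 9 of 15 genes lower and 1 higher (median -0.37). The median was -0.223 without ΔDNMT3A replicate 2 and -0.518 without DNMT3A2 replicate 2. MT-CO1 lay at 2414, 2330, 2284 and 2298 CPM in ΔDNMT3A and at 1550, 1589, 1490 and 1421 CPM in DNMT3A2, and MT-ND3 fell by 0.90. The whole mitochondrial share of reads was lower in every DNMT3A2 library, as given above, and its part in these values was not tested. Genes of DNA replication and the cell cycle divided evenly, 23 higher and 21 lower of 57 (median 0.00207).

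Of the DNA methylation machinery, DNMT3A included, 12 of 22 tested genes were higher and 4 lower (median 0.108). DNMT3B, the other de novo enzyme, lay at 108, 111, 109 and 105 CPM in ΔDNMT3A and at 141, 138, 135 and 136 CPM in DNMT3A2 (0.34 ± 0.026, SE), and WT had 150 ± 1.27 CPM. DNMT1, which copies methylation after replication, lay at 125, 128, 129 and 118 CPM against 151, 147, 147 and 151 CPM (0.25 ± 0.027, SE). DNMT3L, the catalytically inactive partner, was low, at 0.86, 0.444, 0.575 and 0.631 CPM against 0.514, 0.877, 0.708 and 0.583 CPM, and did not pass the test (edgeR adjusted p = 0.894).

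TET3, which oxidises methylated cytosine, rose by 0.62, UHRF2 by 0.50 and the methyl-CpG reader ZBTB38 by 0.43 on the log2 scale. UHRF1, which guides DNMT1 to replicated DNA, fell by 0.30 and the reader MBD2 by 0.42.

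Of the developmental gene clusters known as targets of DNA methylation, the protocadherins tested were higher and the HOX genes divided. The clustered protocadherins on chromosome 5 encode cell-surface proteins chosen stochastically in neurons from an array of alternative promoters. Of 53 listed, 13 were tested and all 13 were higher. However, 8 of these passed the filter through DNMT3A2 alone, which favours genes that are higher there. The 5 at the filter level in all 8 libraries were PCDHB2, PCDHGB5, PCDHGB6, PCDHGA9 and PCDHGA10, with log2 fold changes of 1.49, 0.74, 1.56, 1.00 and 0.62. Of the 40 left out, 26 had at most 3 counts in each library, 27 had a higher mean in DNMT3A2 and 7 a lower one.

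PCDHGB6 lay at 0.717, 1.21, 0.473 and 0.665 CPM in ΔDNMT3A and at 1.98, 3.14, 2.41 and 1.85 CPM in DNMT3A2, and both other lines were below 1 CPM on average. PCDHB2 was at 2.69 ± 0.403 CPM in DNMT3A2 against 0.947 ± 0.0217 CPM in the knockout (SD, n = 4 each), with 2.75 ± 0.412 CPM in WT. Within lane code L005 PCDHGA9 was higher by 0.57 and did not pass (edgeR adjusted p = 0.151). The gamma genes share exons and overlap, which makes their counts uncertain. The cluster lies in a stretch of chromosome 5, from 140711275 to 149354583, in which the median over 50 tested genes was 0.487. These genes include the protocadherins named here, so that median is not separate from their values.

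The HOX list had 13 higher and 6 lower of 29 tested (median 0.176), and the median was 0.347 within lane code L005 and 0.0768 within L006. Among all genes tested, 33.8% were higher and 34.1% lower. Against DNMT3A1, 12 of the 29 were higher and 10 lower (median 0.019). Relative to the WT mean, the list's median was 0.309 to 0.491 (log2) in the ΔDNMT3A libraries, 0.375 to 0.543 in DNMT3A1 and 0.539 to 0.704 in DNMT3A2. HOXB9 rose from 6.21 ± 0.673 to 14.3 ± 0.59 CPM, HOXA11 from 1.2 ± 0.267 to 3.11 ± 0.258 CPM and HOXC5 from 0.84 ± 0.202 to 2.0 ± 0.32 CPM (SD, n = 4 each). Imprinted genes divided 10 higher to 11 lower of 24. IGF2, the imprinted growth factor, rose from 195, 225, 212 and 199 CPM to 506, 487, 438 and 433 CPM (1.16 ± 0.044, SE).

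CpG content of the promoter window was compared with the size of change, for the 10528 of 12971 tested protein-coding genes with a RefSeq window. The median window held 26 CpG dinucleotides over all these genes, and also over those that were higher and over those that were lower. Among genes that rose by at least 1 on the log2 scale it held 19, among those that fell by at least 1 it held 18, among the 55 that rose by at least 3 it held 18, and among the 99 that fell by at least 3 it held 10. Windows with 5 or fewer CpGs made up 8.11% of all, 21.6% of those higher by at least 1 and 27.0% of those lower by at least 1. DNA methylation was not analysed here.

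Promoters of a pair of genes that fell steeply are shown, with CG in capitals in the 250 bases before the RefSeq start (GRCh38.p14). PLB1 has 3 CpGs there and PKIB 18, counted over fewer bases than the 300-base windows above. The log2 fold changes of DNMT3A2 against WT were -0.97 for PLB1 and -0.54 for PKIB. The RefSeq start of PLB1 lies inside the gene as the count tables delimit it (28457145 to 28643788).
PLB1, chr2:28495810-28496059, plus strand: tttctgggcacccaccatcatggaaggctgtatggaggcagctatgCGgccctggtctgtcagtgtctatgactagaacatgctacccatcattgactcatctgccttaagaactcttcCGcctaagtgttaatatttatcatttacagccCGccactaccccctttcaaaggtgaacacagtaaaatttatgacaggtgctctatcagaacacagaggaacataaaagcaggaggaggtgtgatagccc
PKIB, chr6:122471671-122471920, plus strand: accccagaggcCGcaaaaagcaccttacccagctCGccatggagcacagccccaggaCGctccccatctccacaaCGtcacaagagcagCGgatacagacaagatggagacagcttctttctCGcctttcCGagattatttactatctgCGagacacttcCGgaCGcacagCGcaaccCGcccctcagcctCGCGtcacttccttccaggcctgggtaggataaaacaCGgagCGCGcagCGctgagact

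Stretches of neighbouring genes that moved together were sought with medians over 50 consecutive tested genes. Of 15267 such windows, 452 had a median of 0.5 or more in size, where the median of all windows was 0.0254. The lowest window, on chromosome 2 from 26308547 to 28850611, had a median of -1.3 with all 50 genes below 0, 48 of them past the threshold. CENPA, the histone variant of centromeres, lay there at 69.8, 74.0, 73.5 and 72.6 CPM in ΔDNMT3A, at 31.3, 28.9, 31.5 and 29.98 CPM in DNMT3A2, at 29.9 ± 0.907 CPM in WT and at 66.6 ± 1.37 CPM in DNMT3A1. FOSL2 showed the same order, with 215 ± 6.2, 90.4 ± 1.34, 90.2 ± 1.81 and 221 ± 5.39 CPM in these lines.

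A window on the X chromosome, from 149476990 to 154516242, had a median of -1.07 against ΔDNMT3A, -1.09 against WT and -1.01 against DNMT3A1. It was low in DNMT3A2 against each of the other lines. NSDHL, a sterol enzyme, fell there by 1.23 and FLNA, filamin A, from 1030 ± 82.5 to 423 ± 16.1 CPM (SD, n = 4 each). On chromosome 3 a window from 177294442 to 184361651 had a median of -0.804 against ΔDNMT3A and -0.211 against WT, and ZMAT3, a p53 target, fell there by 0.81.

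The highest window, on chromosome 5 from 8458842 to 35814611, had a median of 0.62 against ΔDNMT3A, 0.582 against WT and 0.852 against DNMT3A1. Inside windows past 0.5 in size lay 878 tested genes, 82.2% of them called, with 193 higher and 529 lower. The other 15553 genes had 67.1% called, 5354 higher and 5082 lower. The broad difference between the lines was thus also present outside windows past that cut. Weaker shifts of neighbouring genes stay among the other genes, so regional shifts as a whole were not set aside. Over whole chromosomes, windows past the cut included, chromosome 22 had 37 genes higher and 266 lower of 400 tested (median -0.35). Chromosome 15 had 325 higher and 90 lower of 572 (median 0.257). The part of such shifts in the calls was not tested.

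Set against all other Caco-2 lines in a single fit, DNMT3A2 differed from each of WT, ΔDNMT3A and DNMT3A1 in the same direction in 5143 of 17764 genes tested (29.0%), 2636 higher (14.8%) and 2507 lower (14.1%). With at least 1 on the log2 scale in every contrast there were 223 higher (1.26%) and 500 lower (2.81%). In 27.7% of genes the 4 DNMT3A2 libraries were all above or all below every other library, against 18.8% for WT, 15% for ΔDNMT3A and 25.4% for DNMT3A1. These shares were not compared by a test, and the DNMT3A1 line had 3 libraries where the others had 4.

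Several genes that mark DNMT3A2 this way have appeared above, among them FBXO25, SMC1B, SLC7A4, KRT23 and CD24. NINL, a centrosomal protein, lay at 10.7, 10.6, 10.6 and 10.4 CPM in ΔDNMT3A and at 0.79, 0.692, 0.956 and 0.583 CPM in DNMT3A2, with 12.4 ± 0.99 CPM in WT and 14.9 ± 0.428 CPM in DNMT3A1. L3MBTL1, a chromatin-compacting reader of methylated histones, fell from 2.82 ± 0.261 to 0.153 ± 0.149 CPM (SD, n = 4 each). APOBEC3G, a cytidine deaminase that restricts retroviruses, fell from 1.29 ± 0.204 to 0.108 ± 0.0478 CPM.

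CELF3, an RNA-binding protein, and SIGLEC6, a sialic-acid-binding lectin, had at most 3 counts in every DNMT3A2 library and fell by at least 3.44 and 2.81 on the log2 scale against ΔDNMT3A. PLA2G4A, the phospholipase that releases arachidonic acid, was higher than in every other line, at 3.42 ± 0.265 CPM against means of 0.528 or less. The smallest of its log2 fold changes against the other lines was 2.69.

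Directly against the line carrying the long isoform, 11392 of 16637 tested genes differed (68.5%), 5648 higher and 5744 lower in DNMT3A2. PKIB was lower by a log2 fold change of -6.05 in this contrast and NKD1 higher by 3.39. This contrast shares the DNMT3A2 libraries with the one against the knockout, so the values stand side by side and are not independent.

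Of genes with high levels in either line, CALM2, a calmodulin gene on chromosome 2, had 1961, 1948, 1981 and 1957 CPM in ΔDNMT3A and 783, 817, 778 and 816 CPM in DNMT3A2 (-1.30 ± 0.022, SE), near the 718 ± 17.3 CPM of WT. OAT, a mitochondrial enzyme of ornithine metabolism, fell from 860 ± 43.6 to 265 ± 7.36 CPM. GLUL, glutamine synthetase and a Wnt target in liver, rose from 259 ± 7.75 to 521 ± 7.95 CPM (SD, n = 4 each), where WT had 595 ± 12.2 CPM.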

How the data were processed

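Per the study's methods and the labels, total RNA of each sample was made into stranded libraries and sequenced in pairs. The authors trimmed reads with Trim Galore 0.4.4, aligned them to GRCh38 with STAR 2.5.2b and deposited raw read counts per gene from featureCounts 1.5.2, set to the reverse strand. Counts of 58051 genes were read from the last column of each library's table. Groups were taken from the genotype labels. Genes were filtered with filterByExpr and tested with the quasi-likelihood test of edgeR 4.0.16 (R 4.3.3) on TMM sizes at a Benjamini-Hochberg adjusted p of 0.05, fitting the lines of each comparison alone, and all 4 lines for genes in which DNMT3A2 differed from each other line, by the largest of 3 p-values. SE is the log2 fold change divided by the root of F. CPM used TMM sizes over 15 Caco-2 libraries. Bounds used a floor of 3 counts per library. The filter lay at about 0.331 CPM.

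The genes named were those leading the fits, the ends of each list by size, and the most abundant genes, among genes with a mean of at least 1 CPM, with the targeted gene and its relatives and landmarks of shifted stretches. A few genes that these rules would name are not reported here. Members and lists were chosen with earlier results of these data known. On simulated counts for the main comparison (16431 genes, 200 of them changed) 99% of changes of size 1 and 90% of size 0.5 were recovered. Of the calls, 7.8% were false, and 5.18% with DESeq2. Against DNMT3A1 (16637 genes, 200 of them changed) the edgeR shares were 97%, 83% and 7.69%. Far more genes were called in the data (67.9% in the main comparison), so these shares need not hold there. Alternatives were DESeq2 1.42.0, other scaling, filters, all lines in a single fit, a replicate block, gene length and GC trends, each library left out and, added after the data were seen, lane codes and genes outside shifted stretches. The replicate of DNMT3A1 numbered 3 was not analysed here.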

Additional observations from a re-analysis of the deposited data

Results flagged for a closer look

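In groups of 4 libraries, a library was singled out where its gap to the nearest other library was too large a share of the group's range by Dixon's criterion. Of 276 groups, 20 met it (7.25%), and chance gives about 1 in 20. In ΔDNMT3A, replicate 3 was high for IFI27 (17.9 CPM, others 15.5 to 15.9), DDIT4 (101 CPM, others 88.9 to 90.4), TNFRSF1B (14.7 CPM, others 12.5 to 12.8) and TOX3 (0.169 CPM, others 0.0888 to 0.0997). Replicate 1 was low for CDH1 (796 CPM, others 812 to 814) and IGSF10 (0.191 CPM), replicate 2 high for KRT23 (2.64 CPM) and replicate 4 low for CHAC1 (26.6 CPM).

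In DNMT3A2, replicate 1 was high for SOX4 (182 CPM, others 168 to 170) and HOXB9 (15.2 CPM) and low for GLUL (509 CPM, others 524 to 526). Replicate 2 was high for TAP1 (1.02 CPM, others 0.395 to 0.486), PPARG (6.83 CPM) and TSPAN7 (0.461 CPM, others 0.158 to 0.177) and low for C1S (2.54 CPM, others 3.91 to 3.97). Replicate 3 was low for HOXA11 (2.73 CPM) and held the single read of SLC7A4 (0.0354 CPM, others 0). Replicate 4 was high for APOA2 (511 CPM) and AKR1C2 (152 CPM) and low for HOXC5 (1.52 CPM, others 2.12 to 2.21). Each of these genes kept its direction and its adjusted p under 0.05 in edgeR without each of the 8 libraries in turn.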

How the results depend on the processing

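The 11158 genes changed against ΔDNMT3A (5547 higher and 5611 lower) became 5155 higher and 5417 lower with DESeq2, 11833 in all without a filter, 9846 and 9299 within the lane codes L005 and L006, and 10775 to 11103 without 1 library. Requiring a log2 fold change of at least 1 gave 1956 genes, and 2187 against DNMT3A1 and 723 in which DNMT3A2 differed from each other line. Leaving out a library gave 10903 to 11179 genes against DNMT3A1, and 4806 to 4887 against each line, where only the 4 DNMT3A2 libraries were left out in turn. A block on replicate number gave 11113, 11138 and 5158 genes. Same-numbered libraries did not deviate together (correlations 0.0061 to 0.053), so the numbers were not taken as pairs, and DNMT3A2 libraries 1 and 4 correlated best with another number. For named genes, 2599 values kept direction and side of the threshold, 11 lost the call, 1 gained it and 4 reversed. DNMT3A was -0.005471 with a length trend removed and -0.02455 in lane code L005, and 0.138 (edgeR adjusted p = 0.0318) with a GC trend removed. KRT19, at -0.02 in the report, was 0.02977 with the length trend removed and 0.08203 (edgeR adjusted p = 0.00148) with the GC trend removed. The causes were not tested. Calls were lost for IFITM2, PDIA3, MYO1D, SLC26A3, PCDHGA9 and CDX2 under 1 to 3 settings each, and IFITM2 lost its call with DESeq2, without DNMT3A2 replicate 1 and in lane code L006. The median changed sign in at least 1 setting for the cell cycle, drug-metabolizing, imprinted, protein kinase A and intestinal factor lists among those described. Low genes rest on few reads, and intervals beyond the spread of these samples were not estimated.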

Other observations

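Further lists were counted for DNMT3A2 against ΔDNMT3A, beside 33.8% higher and 34.1% lower among all genes tested. Of 22 tested S100 and annexin genes, 4 were higher and 15 lower (median log2 fold change -0.471), and of 22 immediate early genes 4 were higher and 12 lower (median -0.235). The p53 targets divided 6 higher to 12 lower of 21 (median -0.193) and the integrins 5 higher to 7 lower of 12. Of 9 EGF receptor family genes and ligands 5 were higher and 2 lower (median 0.329), and of 16 protein kinase A genes 6 were higher and 5 lower. Of 23 mucin and goblet genes 10 were tested, with 3 higher and 5 lower, and 3 of the 10 passed the filter through the knockout alone. The 3 higher became 0 without DNMT3A2 replicate 3, and 1 with DESeq2 or without ΔDNMT3A replicate 1, ΔDNMT3A replicate 2 or DNMT3A2 replicate 4. Germline genes, a group often under the control of promoter methylation, were mostly silent in both lines, since 52 of 59 stayed below the filter and 46 of those had at most 3 counts in each library.

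Some genes were almost absent from a line. In DNMT3A2, 55 genes (40 protein-coding) had at most 3 counts in every library while the knockout mean was at least 0.5 CPM, and 17 genes (12 protein-coding) showed the reverse. The cut is in raw counts, which is easier to meet in shallower libraries. The median depth was 27294291 reads on genes in DNMT3A2 and 32195825 in ΔDNMT3A, and its part in these counts was not tested.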
